A study of Ovis aries with 115 samples.

Results

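The genes described here are the 200 whose level in the ewe cervix was most clearly higher at the follicular than at the luteal phase of an induced oestrous cycle in every one of 4 sheep breeds. They were chosen from measured values. For each gene the mean of log2(CPM + 0.5), where CPM is the read count scaled to the library's total counts, was taken over the follicular and over the luteal ewes of a breed, and the smallest of the 4 follicular minus luteal differences was the gene's score. Of 27054 identifiers, 15448 reached 1 CPM in 10 or more of the 76 induced libraries, and the 200 with the highest score were kept. That these genes stood higher at the follicular phase of the induced cycle is therefore how they were found, and no test of it is given.

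PolyA RNA was sequenced from post-mortem cervix, with 1 library per sample. Belclare and Suffolk ewes came from Ireland and Norwegian Fur (Fur) and Norwegian White Sheep (NWS) ewes from Norway, and between these pairs the effects of breed and of country cannot be told apart. The libraries labelled Induced and Follicular numbered 10 Belclare, 8 Fur, 10 NWS and 11 Suffolk, those labelled Induced and Luteal 10, 9, 8 and 10, and those labelled Natural and Follicular 10, 10, 10 and 8. The study's methods describe the induced follicular ewes, which were synchronised with progestagen sponges and equine chorionic gonadotropin and whose phase was judged from the ovaries, and how the other states were obtained is not given in the sources used here. Suffolk is the reference breed of the study, with the lowest fertility after cervical insemination with frozen-thawed semen, and Fur and NWS are its breeds of high fertility. The luteal phase of a natural cycle was not analysed here.

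The cervix changes with the ovarian cycle. Around ovulation oestradiol from the growing follicle dominates, the cervix softens and its epithelium secretes abundant thin mucus, whereas in the luteal phase progesterone dominates and the mucus is scant and thick. Both hormones act mainly through nuclear receptors that switch target genes on or off, and the same tissue holds epithelium, fibroblasts, smooth muscle, vessels and leukocytes. In such whole-tissue RNA a lower level can come from fewer cells of a type or from less RNA per cell, and these cannot be told apart.

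Total counts per library ranged from 12238996 to 31261671, with a median of 17835128.5 over the 114 libraries used. At the mean of these totals 3 counts correspond to 0.169 CPM. No sequence or coordinate is given because no sheep genome of the build used for counting was at hand. Names were at hand for 34 of the 200 genes and 1343 of the 15448. They come from the study's tables of breed differences, which mostly list genes higher in Suffolk than in Fur, so the named genes are not a fair sample of the 200, and the other genes are given by their Ensembl identifier.

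The score of the 200 genes ran from 1.03 to 4.70 on the log2 scale with a median of 1.38, while the median score of all 15448 genes was -0.34. It was above 2 for 30 genes, above 3 for 8 and above 4 for 4. Most of the 200 were expressed at modest levels. Their median CPM at the induced follicular phase was under 10 for 85 genes and 100 or more for 34, and at the luteal phase it was under 1 for 52. A gene could pass the filter through its follicular libraries alone: 167 of the 200 also reached 1 CPM in 10 or more luteal libraries, and 200 of 200 did so in 10 or more natural follicular libraries. Just inside the limit of the choice were ENSOARG00000016415, ENSOARG00000001881, THBS2, ENSOARG00000016274 and ENSOARG00000006370, with scores of 1.04, 1.04, 1.04, 1.03 and 1.03. Just outside it were ENSOARG00000013226, ENSOARG00000012212, ENSOARG00000009349, ENSOARG00000006471 and ST6GAL2, with scores of 1.03, 1.02, 1.02, 1.02 and 1.02.

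Averaged over the 200 genes, log2(CPM + 0.5) lay between 1.41 and 3.23 in the 37 luteal ewes, with a median of 2.23. It lay between 2.29 and 5.36 in the 39 induced follicular ewes, with a median of 4.44, and 37 of them stood above every luteal ewe. In the 38 natural follicular ewes, which took no part in the choice, it lay between 2.64 and 5.09 with a median of 4.16, and 34 stood above every luteal ewe. The 200 genes took between 0.522% and 3.57% of all counted reads at the luteal phase, between 2.45% and 7.99% at the induced follicular phase and between 1.83% and 6.25% at the natural follicular phase. A total of 3 of the 77 follicular libraries fell within the luteal range of their own breed: Fur induced follicular replicate 3 at 2.29, NWS natural follicular replicate 3 at 2.64 and Suffolk natural follicular replicate 4 at 2.89. The breed medians of the 200 genes and the counts of DEGs are given below with and without these ewes.

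**Figure D1:**
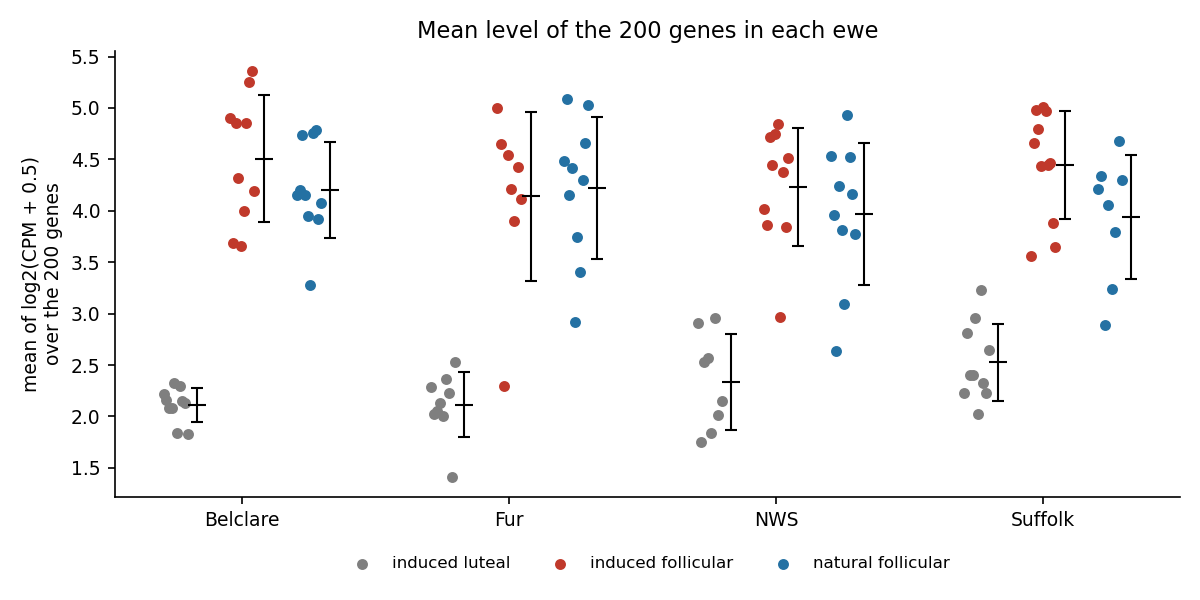
Each point is 1 ewe, placed by its breed and state on the horizontal axis and by the mean of log2(CPM + 0.5) over the 200 genes on the vertical axis, and the bars give the group mean ± SD. Luteal ewes (grey) lie between 1.41 and 3.23, and 71 of the 77 follicular ewes lie above all of them, with Fur induced follicular replicate 3 at 2.29 as the lowest.

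The gene of highest score was ENSOARG00000019783, which has no name in the tables at hand. Its level ranged from 0 to 14.4 CPM at the luteal phase with a median of 0.146, from 0.0548 to 448 CPM at the induced follicular phase with a median of 37.01, and from 0.356 to 180 CPM in natural follicular ewes with a median of 14.6. In 24 of the 37 luteal ewes it had 3 counts or fewer. The ranges of the states overlapped, and the natural follicular median of 14.6 CPM lay close to the highest luteal value of 14.4 CPM. Follicular minus luteal differences by breed ran from 4.70 in Suffolk to 5.93 in NWS.

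TAC3, which encodes the precursor of the tachykinin neurokinin B, is the name of both ENSOARG00000007920, of rank 2, and ENSOARG00000010440, of rank 4. Only uniquely mapped read pairs were kept, so reads that match both copies equally would be lost, and the level of either is uncertain. ENSOARG00000007920 ranged from 0.104 to 82.8 CPM at the luteal phase (median 1.24), from 2.47 to 663 CPM at the induced follicular phase (median 172) and from 14.7 to 317 CPM in natural follicular ewes (median 160). Every induced follicular ewe stood above every luteal ewe of its breed in all 4 breeds. In natural ewes the same held in 2 of the 4 breeds. ENSOARG00000010440 followed it at lower levels, with medians of 0.995, 99.4 and 98.5 CPM at the luteal, induced follicular and natural follicular phase.

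Of the other genes among the first 10, ENSOARG00000016951 had the highest level. Its median was 52.9 CPM in luteal, 1550 CPM in induced follicular and 914 CPM in natural follicular ewes, but its ranges were wide, from 2.52 to 775 CPM, from 12.2 to 10382 CPM and from 3.51 to 9165 CPM. The difference was largest in Belclare, at 6.29, and smallest in Suffolk, at 3.16. ENSOARG00000019673 differed more evenly between breeds, by 2.83 to 3.61, with medians of 75.2, 834 and 672 CPM in the same order of states. ENSOARG00000015403 had medians of 3.94, 159 and 155 CPM, and ENSOARG00000006710 of 26.5, 887 and 340 CPM. The remaining genes of the first 10 were at or near the limit of detection at the luteal phase. ENSOARG00000017002, ENSOARG00000020306 and ENSOARG00000017850 had luteal medians of 0.110, 0.370 and 0 CPM and induced follicular medians of 41.6, 13.3 and 14.5 CPM. ENSOARG00000017850 had 3 counts or fewer in 32 of the 37 luteal ewes and in none of the 38 natural follicular ewes.

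Among the named genes, those known as hormone targets and receptors stood near the top. GREB1, a target and cofactor of the oestrogen receptor, ranged from 6.53 to 261 CPM at the luteal phase (median 36.1), from 40.2 to 1077 CPM at the induced follicular phase (median 447) and from 60.7 to 1025 CPM in natural follicular ewes (median 391.8). In natural ewes it lay above every luteal ewe of the breed in 3 of the 4 breeds, Suffolk and Belclare having the higher levels of the follicular groups. OXTR, the oxytocin receptor, ranged from 0 to 230 CPM in luteal ewes (median 0.535), from 0.707 to 123 CPM in induced follicular ewes (median 5.48) and from 0.111 to 202 CPM in natural follicular ewes (median 4.64). Its luteal maximum came from Suffolk replicate 7 alone, and the next luteal ewe of that breed was at log2(CPM + 0.5) of 3.29 against 7.85. HSD11B1, which regenerates active glucocorticoid from its inactive form, had medians of 2.98, 20.6 and 12.8 CPM in luteal, induced follicular and natural follicular ewes.

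**Figure D2:**
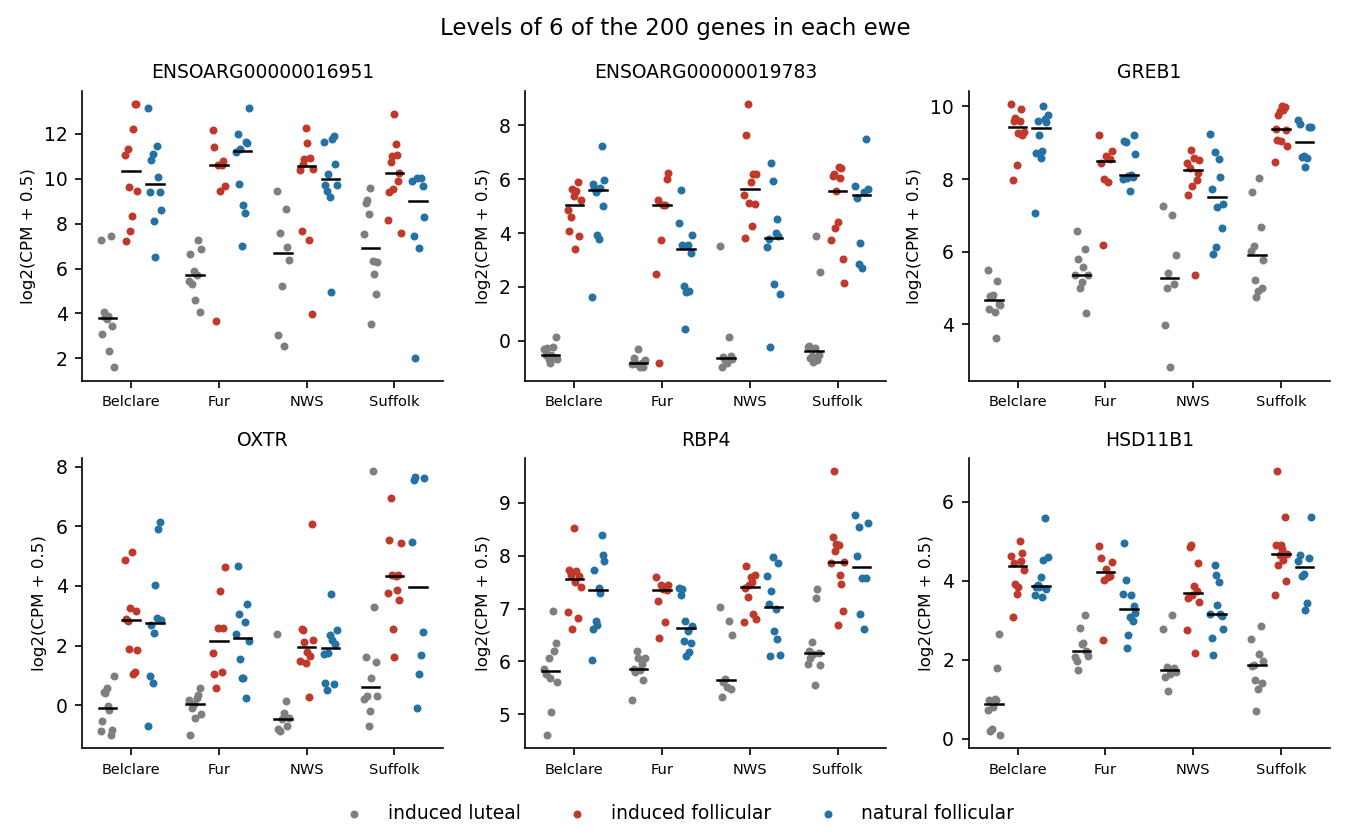
Each panel shows log2(CPM + 0.5) of 1 gene in every ewe by breed and state, with the group median as a bar. Most follicular ewes (red and blue) lie above the luteal ewes (grey) of their breed, with single ewes that do not, and the highest luteal value of OXTR, 7.85, is that of Suffolk replicate 7.

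Carriers and a receptor of retinol were among the 200. RBP2, a retinol-binding protein of the cell interior, had medians of 0.0683, 4.38 and 3.25 CPM in luteal, induced follicular and natural follicular ewes. RBP4, the retinol carrier of plasma, had medians of 61.1, 176 and 144 CPM, and STRA6, the membrane receptor that takes retinol up from it, of 18.7, 101 and 62.2 CPM. The 2 named phospholipases A2, enzymes that free fatty acids from membranes, were PLA2G4F, with medians of 7.03, 52.5 and 56.6 CPM, and PLA2G10, with 3.41, 15.4 and 15.5 CPM. ABCG1, which exports cholesterol, had medians of 214, 686 and 650 CPM, and MFSD2A, a transporter of lysophospholipids, of 31.3, 97.4 and 63.3 CPM.

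PADI4, a peptidylarginine deiminase, converts arginine in proteins to citrulline, and PADI6 is of the same gene family. Their medians were 5.74, 72.9 and 46.6 CPM and 0.341, 3.81 and 1.82 CPM in luteal, induced follicular and natural follicular ewes. Genes of chromatin and cell division in the named group were the histone genes HIST1H2BC and HIST1H1T, SPC24, a part of the kinetochore, and IQGAP3, a scaffold protein of proliferating cells. Their medians were 3.27, 19.6 and 20.6 CPM for HIST1H2BC, and 1.70, 8.58 and 6.68 CPM for IQGAP3. SPC24 and HIST1H1T had luteal medians of 0.731 and 0.812 CPM and natural follicular medians of 2.97 and 7.37 CPM. TUBB3, a beta-tubulin, lay lower, at 0.541, 2.597 and 3.35 CPM.

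Secreted and matrix proteins made up another part of the named genes. ANGPTL2, an angiopoietin-like secreted protein, had medians of 38.8, 201.2 and 144 CPM in luteal, induced follicular and natural follicular ewes, and SPON2, a matrix protein, of 83.0, 200.4 and 189 CPM. CRISPLD2, a secreted protein, had medians of 70.0, 182 and 143 CPM, and in 3 of the 4 breeds every induced follicular ewe stood above every luteal ewe. THBS2, a thrombospondin of the matrix, had medians of 18.3, 75.0 and 57.5 CPM. That name is shared by more than 1 identifier, so its level is uncertain in the way of TAC3. LCN2, a lipocalin that binds bacterial siderophores, had medians of 9.72, 24.3 and 18.3 CPM. The follistatin-like gene FSTL5 was barely detected at the luteal phase, where 33 of 37 ewes had 3 counts or fewer, and had a natural follicular median of 1.23 CPM.

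The remaining named genes are of mixed kinds. GJB2, the gap junction protein connexin 26, had medians of 9.64, 33.9 and 30.3 CPM in luteal, induced follicular and natural follicular ewes, and CKMT1B, a mitochondrial creatine kinase, of 28.9, 82.3 and 80.0 CPM. KRT1, a keratin of stratified epithelium, had medians of 1.43, 5.98 and 6.85 CPM. C1QTNF6, a secreted protein with a C1q domain, had medians of 1.19, 5.92 and 4.19 CPM, and the transglutaminase gene TGM7 of 0.238, 2.05 and 1.22 CPM. B3GALT6, an enzyme that builds the link between proteoglycans and their sugar chains, had 10.4, 26.98 and 19.3 CPM, and PRR16 had 4.04, 12.0 and 10.9 CPM.

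The size of the induced difference varied with breed, in the values that the genes were chosen by. The median follicular minus luteal difference over the 200 genes was 1.99 in Belclare, 1.70 in Fur, 1.67 in NWS and 1.72 in Suffolk, against -0.15, -0.16, -0.18 and -0.15 over all genes. Belclare had the largest of the 4 differences for 106 of the 200 genes and the smallest for 15. Suffolk had the smallest for 68, NWS for 60 and Fur for 57. How often each breed had the largest or smallest difference over all genes was not counted. Over all 15448 genes the difference was above 1 for 669 in Belclare, 544 in Fur, 485 in NWS and 452 in Suffolk. Every follicular ewe stood above every luteal ewe for 64 of the 200 genes in Belclare (1.58% of all genes), 32 in Fur (3.37%), 23 in NWS (0.615%) and 41 in Suffolk (0.809%), and these counts follow from the choice. Without Fur induced follicular replicate 3 the Fur median was 1.94, so that the order of Fur and Suffolk turned.

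The widest spread among breeds was that of ENSOARG00000016836, with differences of 6.71 in Belclare, 4.59 in Fur, 3.56 in NWS and 1.76 in Suffolk. ENSOARG00000017105 differed by 5.20, 5.16, 3.74 and 1.22 in the same order, and ENSOARG00000000450 by 5.08, 4.23, 3.55 and 1.85. For each of these 3 genes Suffolk gave the smallest difference. In natural follicular ewes their differences from the luteal ewes of the breed were 7.78, 6.36 and 6.30 in Fur and 0.26, -0.52 and -0.29 in Suffolk. These genes varied widely from ewe to ewe: ENSOARG00000016836 ranged from 0 to 10815 CPM in natural follicular ewes, with a median of 71.5, and from 0.0625 to 764 CPM in luteal ewes, with a median of 0.773.

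The natural follicular ewes show how the 200 genes stood in libraries that the rule did not use, although the luteal libraries they are set against are the same. The median difference of natural follicular from luteal ewes over the 200 genes was 1.74 in Belclare, 1.76 in Fur, 1.46 in NWS and 1.30 in Suffolk, against -0.13, -0.13, -0.24 and -0.12 over all genes. Without the natural ewe within the luteal range it was 1.59 in NWS and 1.42 in Suffolk. It was above 0 in all 4 breeds for all but 4 of the 200 genes, and for 2596 of the 15448, and above 1 in all 4 breeds for 119 of the 200 and 132 of the 15448. Natural ewes stood above every luteal ewe of their breed for 33 of the 200 genes in Belclare (0.848% of all genes), 57 in Fur (1.6%), 8 in NWS (0.188%) and 8 in Suffolk (0.285%). In the fit of all breeds 200 of the 200 genes were called higher in natural follicular than in luteal ewes, where 10.5% of all genes were called higher and 10.1% lower. The log2 fold changes of the 200 ran from 1.06 to 7.50. Because the luteal libraries of this fit also chose the genes, its calls for the 200 are a description and not a test.

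**Figure D3:**
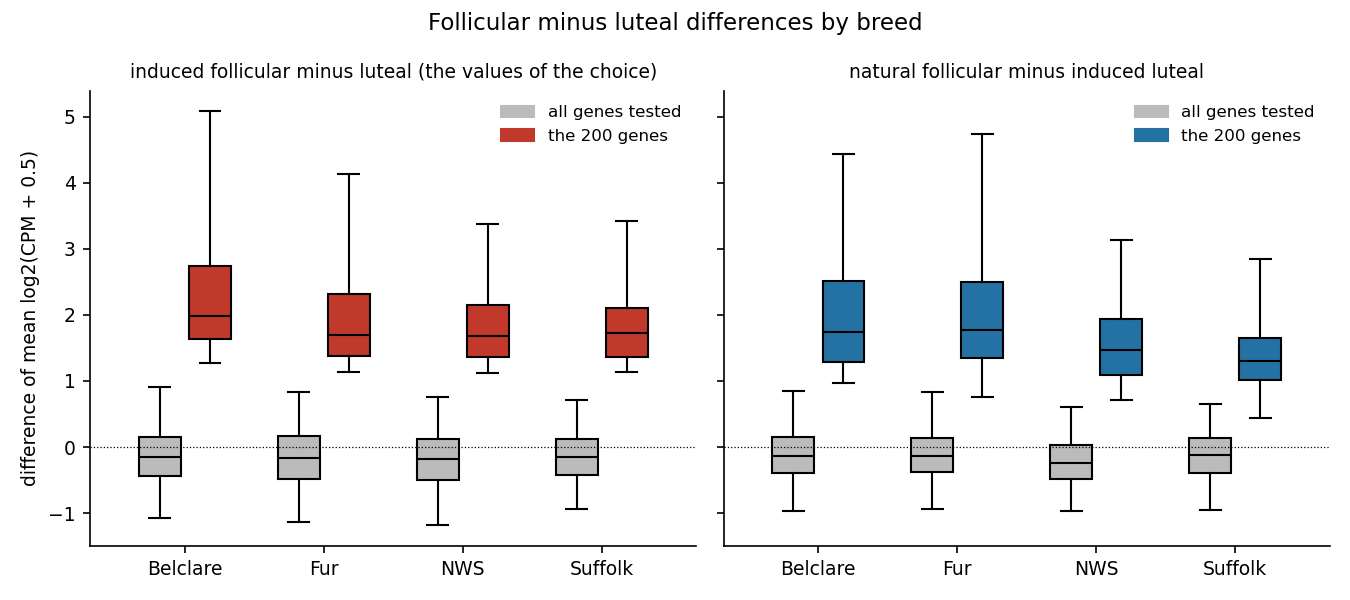
Boxes show the middle 50% of genes with the median as a line, and whiskers the 5th to the 95th percentile, of differences in mean log2(CPM + 0.5) by breed, for all 15448 genes (grey) and for the 200 genes. The left panel holds the values the genes were chosen by, and the right panel the natural follicular ewes against the same luteal ewes, where the medians of the 200 genes run from 1.30 in Suffolk to 1.76 in Fur.

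Relative to the induced difference, the natural difference amounted to a median of 88.6% in Belclare, 104% in Fur, 83.9% in NWS and 73.7% in Suffolk. Without the 3 ewes within the luteal range of their breed it was 91.7% in Fur, 91.4% in NWS and 81.6% in Suffolk, so that the value above 100% in Fur rested on induced follicular replicate 3. Set directly against induced follicular ewes, natural ewes were lower by a median of -0.27 in Belclare, -0.27 in NWS and -0.44 in Suffolk, while the Fur median was 0.07. Without those 3 ewes the median turned to -0.18 in Fur, and it was -0.14 in NWS and -0.34 in Suffolk, so that natural ewes were lower by the median in each breed. The difference was below 0 in all 4 breeds for 49 of the 200 genes and above 0 in all 4 for 0. The induced follicular libraries of this comparison are those the genes were chosen by, which by itself favours lower values in natural ewes. The percentages above carry the same bias, and the 3 ewes left out were picked by their mean over the same 200 genes. The quasi-likelihood test of edgeR called 0 of the 200 genes higher and 0 lower in natural than in induced follicular ewes, as it did for 0% of all genes in either direction. At an unadjusted p under 0.05 there were 16 of the 200 and 2238 of the 15448, and the Wald test of DESeq2 called 0 of the 200 higher and 1 lower. Over all genes that Wald test called 7 higher and 3 lower.

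The genes of the 200 that declined most from induced to natural follicular ewes, averaged over the breeds, were ENSOARG00000006710 by a difference of -1.17, ENSOARG00000008972 of -0.87 and ENSOARG00000010715 of -0.86. ENSOARG00000008972 was abundant, with medians of 623 CPM in luteal, 2569 CPM in induced follicular and 1504 CPM in natural follicular ewes. At the other end stood ENSOARG00000011753, ENSOARG00000004018 and ENSOARG00000016836, with mean differences of 0.42, 0.31 and 0.30. ENSOARG00000011753 had medians of 1.18, 7.76 and 9.16 CPM and was the evenest of these 3 across breeds, with natural minus luteal differences from 1.70 in NWS to 2.86 in Fur.

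Within the natural follicular ewes the 200 genes shared a part of their variation. After each breed was centred on its own mean and each gene scaled to equal variance, the first principal component of the 38 ewes held 35.7% of the variance over the 200 genes and 24.9% over all 15448. All but 4 of the 200 genes loaded on it with the same sign, and 122 correlated with it above 0.5. The same counts were not made over all genes, so they do not set the 200 apart. The closest was ENSOARG00000015333, with a correlation of 0.95. Among named genes TUBB3, SPC24 and IQGAP3 were near it, at 0.84, 0.80 and 0.80, and GREB1 and TAC3 were between, at 0.55 and, for its 2 identifiers, 0.63 and 0.60. A smaller set of 23 genes correlated below 0.2, among them PLA2G10 at -0.07, KRT1 at 0.17, OXTR at 0.19 and LCN2 at 0.20. These are correlations with a component computed from the same ewes and genes, so they describe its make-up only.

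Breed differences among natural follicular ewes are the tests that the choice of genes did not use. Each breed was compared with Suffolk in the ewes of that pair of breeds, and a differentially expressed gene (DEG) had a Benjamini-Hochberg adjusted p under 0.05 over all 15448 genes in the quasi-likelihood test of edgeR and a fold change above 1.5. The 200 genes included 0 DEGs between Belclare and Suffolk, the Irish breeds, where 0% of all genes were higher and 0.00647% lower in Belclare. At an unadjusted p under 0.05 there were 12 of the 200 and 1514 of the 15448, and the Wald test of DESeq2 called 0 of the 200. Over all genes that Wald test called 6 higher and 16 lower. The median log2 fold change of the 200 was 0.08, and -0.02 without Suffolk natural follicular replicate 4, with single estimates from -2.14 to 5.48.

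Fur ewes differed from Suffolk ewes in 35 of the 200 genes. The 13 DEGs higher in Fur were 6.5% of the 200 (4.76% of all genes), and the 22 lower in Fur were 11% (4.7% of all genes). The median over the 200 was 0.13 on the log2 scale, against -0.02 over all genes. Without NWS natural follicular replicate 3 and Suffolk natural follicular replicate 4, of which only the latter enters this comparison, the counts were 10 higher and 29 lower, and 31 of the 35 DEGs were called again. Over all 15448 genes 749 were then higher and 764 lower in Fur.

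**Figure D4:**
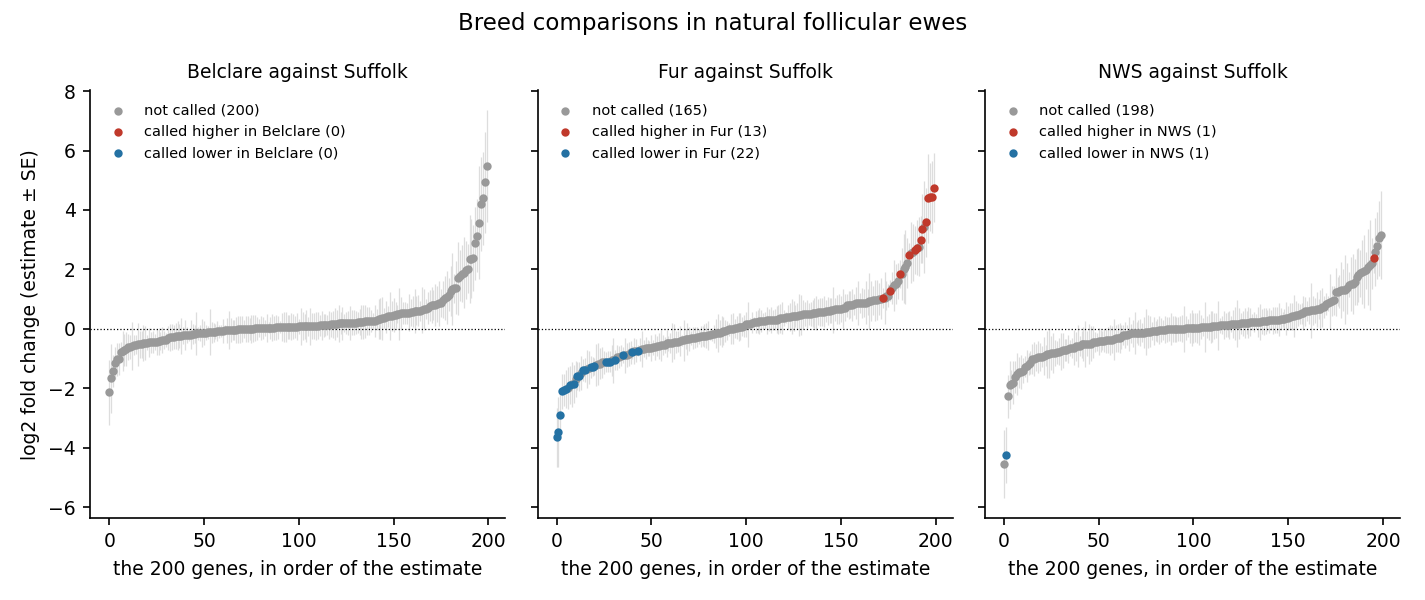
Each panel shows the 200 genes in order of their log2 fold change (estimate ± SE) between a breed and Suffolk in natural follicular ewes, with DEGs coloured. Fur has 13 DEGs higher (red) and 22 lower (blue), NWS has 1 of each and Belclare has 0.

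Of the 22 DEGs lower in Fur 13 had a name, in a set of names where 19.4% of 1343 genes were lower and 1.27% higher in Fur. RBP4 ranged from 67.8 to 168 CPM in 10 natural Fur ewes (median 98.1) and from 98.0 to 434 CPM in 8 natural Suffolk ewes (median 222). The ranges overlapped, but 10 of 10 Fur ewes lay below the Suffolk median. Its log2 fold change was -1.26 ± 0.289 (SE; edgeR quasi-likelihood adjusted p = 0.00901). STRA6 ranged from 13.6 to 108 CPM in Fur (median 43.2) and from 22.4 to 520.5 CPM in Suffolk (median 184), again with 10 of 10 Fur ewes below the Suffolk median. The log2 fold change of STRA6 was -2.05 ± 0.538 (SE; edgeR quasi-likelihood adjusted p = 0.0158). RBP2, the third retinol gene, was not a DEG.

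ENSOARG00000009963 was the most abundant DEG of the 200, from 2393 to 10655 CPM in Fur (median 5009) and from 6519 to 24806 CPM in Suffolk (median 11995). All 10 Fur ewes lay below the Suffolk median, with a log2 fold change of -1.27 ± 0.322 (SE; edgeR quasi-likelihood adjusted p = 0.0135). OXTR ranged from 0.673 to 25.0 CPM in Fur (median 4.31) and from 0.433 to 202 CPM in Suffolk (median 24.3), and 9 of 10 Fur ewes lay below the Suffolk median. The Suffolk ewes spanned the whole range of the Fur ewes. Its log2 fold change was -3.66 ± 0.992 (SE; edgeR quasi-likelihood adjusted p = 0.0186). Other named DEGs lower in Fur included ANGPTL2, B3GALT6, CRISPLD2, HIST1H2BC, MFSD2A, PADI6, PRR16, SPON2 and THBS2, with log2 fold changes from -1.86 for PADI6 to -0.79 for SPON2. All 13 named genes among the 35 DEGs were on this side, and the names came from tables that mostly list genes higher in Suffolk than in Fur.

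Higher in Fur was ENSOARG00000001680 above all. It ranged from 539 to 1254 CPM in Fur (median 919) and from 35.3 to 535 CPM in Suffolk (median 117), so the lowest Fur ewe lay only just above the highest Suffolk ewe. Its log2 fold change was 2.47 ± 0.410 (SE; edgeR quasi-likelihood adjusted p = 0.00274). ENSOARG00000005504 ranged from 9.49 to 87.5 CPM in Fur (median 21.6) and from 2.91 to 20.1 CPM in Suffolk (median 8.13), with a log2 fold change of 1.85 ± 0.458 (SE; edgeR quasi-likelihood adjusted p = 0.0124) and 10 of 10 Fur ewes above the Suffolk median. ENSOARG00000008316 was near the limit of detection in Suffolk, with a median of 0.0373 CPM and a highest value of 1.30 CPM, and ranged from 0.0555 to 38.1 CPM in Fur (edgeR quasi-likelihood adjusted p = 0.0113, higher in 10 of 10 Fur ewes than the Suffolk median).

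The same breed difference was then read in the induced libraries, which are other ewes, as a description. The 22 genes lower in natural Fur ewes were lower in Fur than in Suffolk in 22 of 22 cases at the induced follicular phase and in 22 of 22 at the luteal phase, by medians of -0.87 and -0.73. Of all 726 genes lower in natural Fur ewes, 573 and 630 had the same sign there. For the 13 genes higher in natural Fur ewes the sign was the same in 11 at the induced follicular phase, with a median of 0.33, and in 4 at the luteal phase, with a median of -0.35. Of all 736 genes higher in natural Fur ewes, 644 and 612 had the same sign.

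Between NWS and Suffolk 2 of the 200 genes were DEGs, 1 higher (0.505% of all genes) and 1 lower in NWS (0.408% of all genes). ENSOARG00000001680 was again higher, from 195.5 to 1590.0 CPM in 10 natural NWS ewes (median 664) against the Suffolk values given above, and 10 of 10 NWS ewes lay above the Suffolk median. The log2 fold change was 2.38 ± 0.498 (SE; edgeR quasi-likelihood adjusted p = 0.0396). OXTR was lower, from 0.925 to 12.6 CPM in NWS (median 3.28), with 10 of 10 NWS ewes below the Suffolk median and a log2 fold change of -4.25 ± 0.952 (SE; edgeR quasi-likelihood adjusted p = 0.0448). The ranges of NWS and Suffolk overlapped for both genes. Both comparisons use the same 8 Suffolk ewes as that of Fur. With the 2 natural ewes named above left out, ENSOARG00000001680 stayed a DEG, and OXTR did not (edgeR quasi-likelihood adjusted p = 0.061, log2 fold change -3.80).

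Markers of smooth muscle and epithelium were summed in the same Fur and Suffolk ewes. The summed level of 3 smooth muscle markers, ACTG2, DES and ACTC1, ranged from 1666 to 7678 CPM in natural Fur ewes (median 4901) and from 69.4 to 5953 CPM in natural Suffolk ewes (median 450.05). The summed level of 23 epithelial markers ranged from 2284 to 3479.5 CPM in Fur (median 3090.1) and from 2951 to 5148 CPM in Suffolk (median 4612). By the edgeR quasi-likelihood test 0 of the 3 smooth muscle markers and 9 of the 23 epithelial markers were DEGs, the latter all lower in Fur, as were 19.4% of the 1343 genes with a name. Their part in the breed differences of the 200 genes was not tested. Between the states the epithelial sum had medians of 3881 CPM in luteal, 3971 CPM in induced follicular and 3413 CPM in natural follicular ewes. The smooth muscle sum had medians of 1032, 718 and 3309 CPM, and the ranges of the states overlapped for both sums.

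Genes of the same pathways that are not among the 200 were counted from 14 lists of known genes, as far as the tables name them, in the edgeR quasi-likelihood fit of induced follicular against luteal ewes, where 11.8% of all genes were called higher and 12.9% lower. Of the 1343 genes with a name, from which the lists are drawn, 20.5% were higher and 11.02% lower. Since the genes that differed most evenly are among the 200, these counts describe what remained. With total counts as library sizes the median log2 fold change of all genes moved from -0.01 to -0.18, and 29.3% rather than 47.7% of the calls were higher at the follicular phase. Under that scaling the medians of the ion and water transport, epithelial and neutrophil lists turned from 0.04, 0.10 and 0.04 to -0.13, -0.08 and -0.13. Of 29 genes of the extracellular matrix and its remodelling 15 were higher and 2 lower at the follicular phase, with a median log2 fold change of 0.72. They include MMP14, a membrane-bound matrix protease (0.81 ± 0.0971), HYAL1, which degrades hyaluronan (0.98 ± 0.101), and, in the other direction, PLAT, the tissue plasminogen activator (-0.98 ± 0.107). The 3 members of this list among the 200 are THBS2, SPON2 and CRISPLD2.

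Of 12 genes of the oestrogen response 3 were higher and 3 lower, RAB31 (1.17 ± 0.0826), RET (1.52 ± 0.224) and PADI2 (1.06 ± 0.169) being the higher ones, beside GREB1 and OXTR among the 200. Of 9 genes of the progesterone response 4 were higher, among them the growth factor gene BMP2 (1.41 ± 0.139), and 1 was lower, with total counts as library sizes 2 and 2. Of 12 genes of mucus and luminal secretion 4 were higher and 2 lower. The higher ones include the mucin genes MUC16 (1.28 ± 0.138), MUC5B (1.11 ± 0.208) and MUC1 (0.87 ± 0.117). The lower ones include GALNT15, whose log2 fold change ran from -1.31 to -0.44 over 11 alternatives of the fit, of which 2 did not call it.

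Genes of ion and water transport were divided, with 9 of 20 higher and 6 lower. CFTR, the chloride channel of secretory epithelium, was higher by 1.46 ± 0.166 and SCNN1D, a sodium channel subunit, by 2.33 ± 0.239, whereas AQP9, a channel for water and glycerol also carried by neutrophils, was lower by -3.84 ± 0.455. Of 15 genes of the endoplasmic reticulum and secretory pathway 3 were higher and 2 lower, TMED3, a cargo receptor of early secretion, by 1.43 ± 0.0865. Of 5 genes of cell division 2 were higher and 0 lower, PIF1, a helicase gene (1.84 ± 0.21), and H2AFX, a histone gene (0.66 ± 0.0712). The other 3, NCAPD2, CHTF18 and HMGB2, were estimated at -0.36, -0.33 and -0.33, below the fold change of a DEG but with edgeR quasi-likelihood adjusted p = 2.1e-05, 0.00124 and 7.75e-05. The median of this list was -0.33, and SPC24 and IQGAP3 are among the 200.

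Markers of cell types that a piece of cervix can hold were counted in the same way. Of 18 lymphocyte markers 3 were higher and 5 lower, of 10 neutrophil and myeloid markers 2 and 2, of 23 epithelial markers 1 and 3, and of 3 smooth muscle markers 2 and 0. For smooth muscle the direction differed by breed. The median over ewes of the mean log2 level of the 3 markers rose from luteal to induced follicular ewes in Fur and NWS. It went from 7.04 to 8.45 in Fur and from 6.67 to 8.51 in NWS. In Belclare it fell from 5.02 to 4.29 and in Suffolk from 5.29 to 4.77. The ranges of these states overlapped in each breed. CXCR2, a chemokine receptor of neutrophils, was higher by 2.70 ± 0.306, and PADI4, which neutrophils also express, is among the 200. The 2 lower genes of that list were AQP9, given above under ion and water transport, and ITGAX. The log2 fold change of ITGAX ran from -0.90 to -0.60 over 11 alternatives of the fit. The summed level of the 10 neutrophil and myeloid markers ranged from 94.1 to 437 CPM in luteal ewes (median 290) and from 98.6 to 411 CPM in induced follicular ewes (median 204), and its part in the level of PADI4 was not tested. None of the 17 interferon response genes was higher and 4 were lower, among them ISG15 (-1.46 ± 0.239), OAS1 (-1.42 ± 0.266) and OAS2 (-1.24 ± 0.195). Of 10 genes of motile cilia 0 were higher and 4 lower, MYCBPAP by -0.89 ± 0.0942, and of 2 clock genes 0 were higher and 1 lower. With total counts as library sizes 10 of the 17 interferon response genes, 6 of the 10 motile cilia genes and 10 of the 18 lymphocyte markers were lower, and 2 lymphocyte markers were higher.

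**Figure D5:**
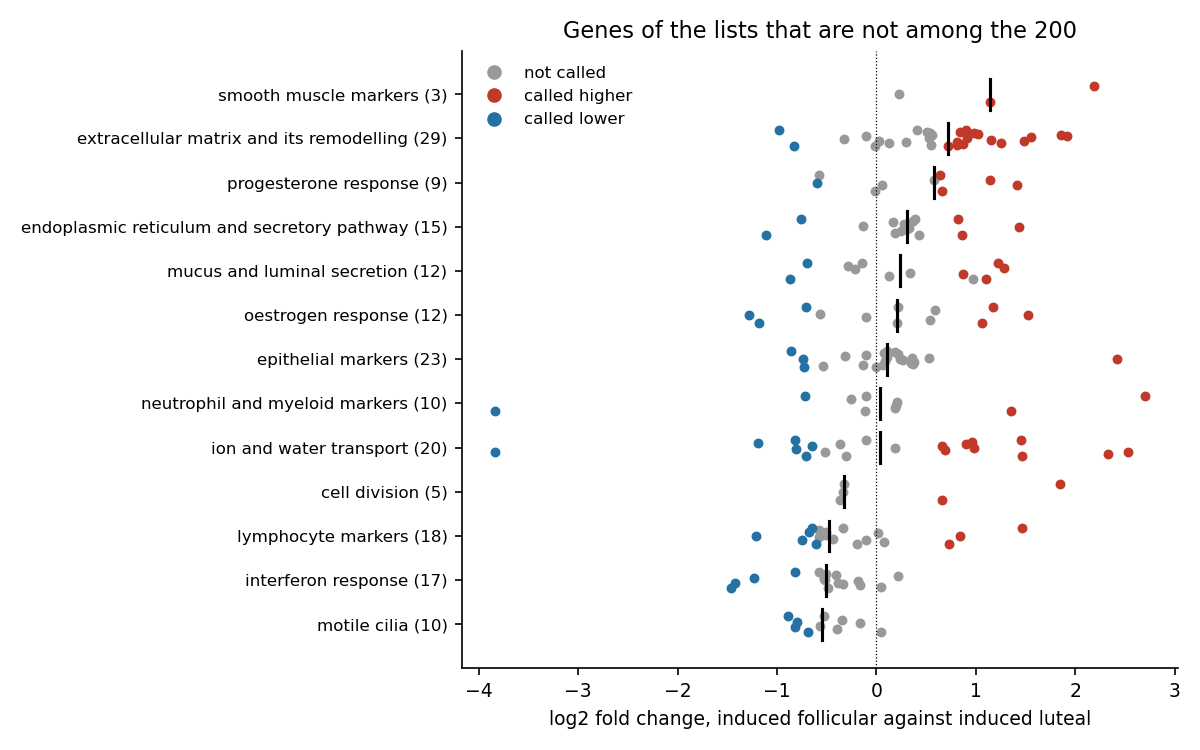
Each point is a gene of a list of 3 or more genes that is not among the 200, coloured red where called higher and blue where called lower and placed by its log2 fold change between induced follicular and luteal ewes, with the list's median as a bar and the number of genes in brackets. Matrix genes (median 0.72) lie mostly to the right, and interferon response and motile cilia genes (medians -0.51 and -0.55) mostly to the left.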

How the data were processed

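Cervical RNA of 4 sheep breeds was sequenced as stranded polyA libraries. After adapter trimming, the authors mapped read pairs to Oar_v3.1 with STAR (2.6.1b in the submitters' processing notes), kept the uniquely mapped ones and deposited raw read counts per Ensembl gene from featureCounts (Subread 1.6.3). Loss of reads at repeated or divergent sequence is thus part of the counts. Whether counting used the strand is not given in the sources used here, so overlapping genes are uncertain.

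From the deposited counts, CPM on total counts was computed, with 0.5 CPM added before log2, which understates differences of low genes. The rule kept genes with 1 CPM in 10 libraries. Tests used edgeR 4.0.16 in R 4.3.3 (TMM, quasi-likelihood F test, breed as a covariate between states), with Benjamini-Hochberg adjustment over 15448 genes and a fold change above 1.5. SE is the log2 fold change divided by the square root of F. The study's methods used a likelihood ratio test of DESeq2, and the Wald test of DESeq2 1.42.0 was an alternative. In simulated counts of the Fur and Suffolk comparison over 15448 genes, 58 of 100 genes changed 2-fold and 90 of 100 changed 4-fold were called, with 12 unchanged genes.

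The 200 genes and the 14 lists were chosen with earlier results of these data known. The study's methods cover the induced follicular libraries and were taken to hold for the others. Genes named in the text were the 10 of highest score, the 30 named members of highest score (some are not reported here), for each breed comparison the 3 DEGs with the lowest p on either side, the extremes of natural minus induced and of spread among breeds, ranks 196 to 205 and up to 4 other genes per list. B3GALT6, PRR16, LCN2, CHTF18 and the other DEGs named, with ENSOARG00000015333, were added after their values were seen. Replicate numbers of the titles were not taken to pair ewes. In 0 of 15 sets of same-numbered ewes did every pair correlate above 0.1, and the set medians ran from -0.20 to 0.15. Since every pair had to pass, this check cannot exclude a pairing. No library repeated another: over 490 pairs within groups, chi-square divided by its degrees of freedom was at least 15.4. That libraries are separate ewes is taken from the labels, and p-values measure the spread between them. A library whose title and labels disagree was left out of every comparison. Leaving out the follicular libraries within their breed's luteal range and using total counts as library sizes were alternatives chosen after seeing the data.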

Additional observations from a re-analysis of the deposited data

Results flagged for a closer look

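For the mean over the 200 genes and for 17 genes, the 10 of highest score and the named members down to rank 40, the highest and lowest ewe of each breed and state were compared with the others by Dixon's gap, the gap to the nearest ewe divided by the range of the group on the log2(CPM + 0.5) scale. The 11 Suffolk induced follicular ewes were not tested, because the critical values used covered groups of up to 10 ewes. Of 198 groups tested 38 passed the 95% critical value, where chance gives about 1 in 20, and the genes share their libraries, so these are not independent.

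Fur induced follicular replicate 3 was the lowest of its group in the mean over the 200 genes, with a gap of 0.594. The same ewe was lowest for ENSOARG00000015403 (0.625), ENSOARG00000020306 (0.8), ENSOARG00000016951 (0.677), ENSOARG00000019673 (0.773), GREB1 (0.572), PADI4 (0.732) and ANGPTL2 (0.539). NWS induced follicular replicate 7 was lowest in the mean, with a gap of 0.466, and for GREB1 (0.643), HIST1H2BC (0.647) and ANGPTL2 (0.576), while NWS induced follicular replicate 9 was highest for OXTR (0.607).

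Among natural follicular ewes, Suffolk replicate 4 was lowest for both TAC3 identifiers (0.603 for ENSOARG00000007920 and 0.708 for ENSOARG00000010440), ENSOARG00000016951 (0.609) and PLA2G4F (0.620). NWS replicate 3 was lowest for the same TAC3 identifiers (0.571 and 0.568), ENSOARG00000015403 (0.472) and HIST1H2BC (0.554), and NWS replicate 6 for ENSOARG00000016951 (0.605). Belclare replicate 1 was lowest for the TAC3 identifiers (0.539 and 0.501), ENSOARG00000019673 (0.521) and GREB1 (0.518).

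Among luteal ewes the gaps were mostly upward. Suffolk replicate 7 was highest for ENSOARG00000020306 (0.652), OXTR (0.533) and ANGPTL2 (0.511), Suffolk replicate 5 for ENSOARG00000017002 (0.646) and RBP2 (0.525), and NWS replicate 1 for ENSOARG00000019783 (0.747) and OXTR (0.691). Fur replicate 8 was highest for ENSOARG00000015403 (0.703) and lowest in the mean over the 200 genes (0.526). Belclare replicate 4 was highest for ENSOARG00000017850 (1), where the other ewes of the group were tied, Belclare replicate 1 for RBP2 (0.713), and Belclare replicate 7 was lowest for ANGPTL2 (0.662).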

How the results depend on the processing

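Of the 200 genes, between 188 and 200 were chosen again when each of the 76 induced libraries was left out in turn, and at least 153 under each of 11 other versions of the rule, the lowest with the mean of the breed differences in place of the smallest. The 35 DEGs between Fur and Suffolk among the 200 became 53 with the Wald test of DESeq2 (35 shared), 17 with a replicate block (12 shared) and 1 when the test was made against the fold change threshold. The 2 DEGs between NWS and Suffolk became 14 with the Wald test of DESeq2, 14 with all 4 breeds in one fit, 0 with a replicate block and 0 against the fold change threshold. For natural against induced follicular ewes the count of 0 became 1 with the Wald test of DESeq2 and 1 with the breeds other than Belclare. Over all genes these 2 settings called 7 higher and 3 lower, and 32 higher and 16 lower. Between Belclare and Suffolk 0 of the 200 were called under the alternatives run. Over all genes, the 78 higher and 63 lower DEGs between NWS and Suffolk became 542 higher and 333 lower with the Wald test of DESeq2, 658 and 496 with all 4 breeds in one fit, and 16 and 47 with total counts as library sizes. Those between Fur and Suffolk, 736 higher and 726 lower, became 949 and 859 with the Wald test of DESeq2. They became 590 higher and 352 lower with the replicate block and 11 and 6 against the fold change threshold. The cause of these changes was not tested. In the replicate block, ewes without a partner of the same number add nothing, and whether the numbers pair ewes is not known (correlations from -0.44 to 0.60). None of the calls followed for the genes of the naming rule changed sign, but medians did: without the ewes within the luteal range, natural minus induced follicular in Fur went from 0.07 to -0.18 and Belclare against Suffolk from 0.08 to -0.02. Leaving out single ewes was not run for the breed tests, whose groups hold 8 to 10 ewes. Depth limits the low genes: 3 counts are 0.169 CPM at the mean total, and the luteal median was under 1 CPM for 52 of the 200.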

Other observations

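A library whose title and labels disagree on its group was left out of every comparison. With 15387419 counts, it had a mean log2(CPM + 0.5) over the 200 genes of 2.73, and 2.06% of its counts fell on them.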
